A study of Mus musculus with 6 samples.

Results

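This is an account of 36 genes that were at or near 0 in mouse embryonic endothelial cells with a wildtype Integrin-β1 chimera and were counted in every culture with the K794Q form of it. The genes were picked on their raw counts: at most 5 counts in each of 3 β1-WT-GFP cultures and at least 10 counts in each of 3 β1-K794Q-GFP cultures. Of the 23420 genes in the count table, 10822 had at most 5 counts in each β1-WT-GFP culture, and the 36 genes were 0.333% of these. The mirror rule, with the groups exchanged, found 31 of 10765 genes (0.288%). Because these counts chose the genes, their difference between the groups is described below without a test.

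RNA was sequenced from 6 cultures of eEnd2, a mouse embryonic endothelial cell line. All 6 carried a transfected human Integrin-β1A with eGFP inserted in its extracellular part, driven by a short human β-actin promoter next to a chicken lysozyme matrix attachment region. In the β1-WT-GFP group (cultures A, B and C) the chimera was wildtype, and in cultures A, B and C of the β1-K794Q-GFP group a lysine of its cytoplasmic tail was replaced by glutamine (K794Q), which mimics the acetylated residue. The groups are called WT and K794Q cultures from here on. GFP-low and GFP-high cells were sorted and expanded, the cultures were untreated and were lysed at confluence. Which of the sorted populations gave each culture is not stated, untransfected eEnd2 cells were not analysed here, and whether the cultures of a group were grown from separate transfections is not stated, so that p-values measure only the spread between these cultures. A culture is a bulk sample: more cells with a transcript and more transcript per cell cannot be told apart.

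Library totals ran from 9589826 to 15287191 counts, and 3 counts, taken as the upper limit for a gene with 0 counts, came to 0.209 to 0.300 CPM in the WT libraries, where CPM is the count scaled to a common library size. Intervals and limits given here cover counting error only. All 14 endothelial marker genes of a list had enough reads for a test, with a median log2 fold change of 0.08 (K794Q minus WT). Cdh5, the endothelial cadherin, had 1338 to 2227 CPM in WT and 1294 to 3994 CPM in K794Q cultures. The junction gene Cldn5 had 267, 252 and 4.74 CPM in WT cultures A, B and C. In the K794Q cultures Cldn5 was at 17.5, 0 and 24.3 CPM, so that WT culture C lay below K794Q cultures A and C. The fitted change of Cldn5, -3.64 on the log2 scale, was the lowest of the 14, with an unadjusted p of 0.088 (edgeR quasi-likelihood test). Summed over the 14, the level was 12032 to 13686 CPM in WT and 11173 to 19650 CPM in K794Q cultures. Summed mesenchymal and mural markers were at 82.7 to 195 CPM in WT and 2.58 to 3.85 CPM in K794Q cultures. Most of the WT sum was Prrx1, with 183, 194 and 56.5 CPM in cultures A, B and C. Without it the list summed to 0.612, 1.00 and 26.1 CPM in WT and 2.98, 3.75 and 2.58 CPM in K794Q cultures, and 5 of its 12 genes were at 0 in every culture. Summed neuronal markers were at 22.2 to 286 CPM in WT and 6.81 to 9.15 CPM in K794Q cultures, and without Stmn2, the most abundant of them, at 5.80 to 12.7 CPM and 0.0860 to 6.81 CPM. Haematopoietic markers summed to 38.5 to 90.3 CPM and 32.0 to 145 CPM, and epithelial markers to at most 1.53 CPM in any culture. Most of the haematopoietic sum was Cd68, with 37.2 to 88.6 CPM in WT and 31.0 to 103 CPM in K794Q cultures. Cd53 had 41.2 CPM in K794Q culture B and at most 0.800 CPM in any other culture. The part of these differences in the results below was not tested. The row of the targeted gene, Itgb1, had 733, 915 and 1354 CPM in WT and 1146, 2677 and 1180 CPM in K794Q cultures A, B and C, and it was not separated into mouse and chimera reads. WT culture C and K794Q culture B stood apart from the other cultures of their groups: without the former the rule found 56 genes, and without the latter 76.

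A gene with almost no reads in a bulk culture is usually held silent in its chromatin or lacks the factors that its promoter needs. In mammals, promoters rich in the dinucleotide CpG are mostly unmethylated and active in many cell types, whereas promoters poor in CpG tend to serve tissue-restricted genes. Imprinted genes are a separate case, since the copy from one parent is silenced by methylation laid down in the germline. Integrin-β1, the receptor subunit changed in these cells, binds extracellular matrix and signals through its cytoplasmic tail.

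Promoter sequence was not used to choose the genes. Windows from 250 bases before to 50 bases after the start of transcription (RefSeq, GRCm38.p6) were found for 29 of the 36 genes. For 5 of these (A230057D06Rik, D7Ertd715e, Mettl20, Olfr1396 and Vdr) the RefSeq start lay more than 1000 bases from the GENCODE gene start. The windows of 6 genes are shown because they cover the range of CpG content among the genes with the highest counts, together with Mgmt, whose promoter is known for silencing by methylation. They lie at chr8:104926010-104926309 (plus strand, Ces2e), chr2:110950195-110950494 (minus strand, Ano3), chr11:22971755-22972054 (plus strand, Zrsr1), chr7:136894336-136894635 (plus strand, Mgmt), chr11:33513704-33514003 (minus strand, Ranbp17) and chr12:78226405-78226704 (plus strand, Gphn). Each is written 5′ to 3′ on the strand of its gene, with every CpG in capitals.
Ces2e: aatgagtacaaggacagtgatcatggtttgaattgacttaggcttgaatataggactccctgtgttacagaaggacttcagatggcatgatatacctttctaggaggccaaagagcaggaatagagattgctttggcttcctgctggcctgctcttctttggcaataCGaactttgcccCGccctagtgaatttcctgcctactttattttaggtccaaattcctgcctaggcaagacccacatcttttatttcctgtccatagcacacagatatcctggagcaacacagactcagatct
Ano3: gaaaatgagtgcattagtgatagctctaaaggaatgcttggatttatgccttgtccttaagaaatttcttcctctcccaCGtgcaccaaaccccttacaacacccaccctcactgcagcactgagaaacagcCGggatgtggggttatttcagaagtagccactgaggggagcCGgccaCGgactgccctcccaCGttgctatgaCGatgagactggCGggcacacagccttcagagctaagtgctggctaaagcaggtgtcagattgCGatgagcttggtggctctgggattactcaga
Zrsr1: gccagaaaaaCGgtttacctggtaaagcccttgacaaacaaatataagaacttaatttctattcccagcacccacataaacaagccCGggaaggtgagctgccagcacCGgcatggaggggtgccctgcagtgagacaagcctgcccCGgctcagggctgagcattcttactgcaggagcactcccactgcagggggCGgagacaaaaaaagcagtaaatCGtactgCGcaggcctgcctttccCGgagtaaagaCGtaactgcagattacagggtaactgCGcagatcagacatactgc
Mgmt: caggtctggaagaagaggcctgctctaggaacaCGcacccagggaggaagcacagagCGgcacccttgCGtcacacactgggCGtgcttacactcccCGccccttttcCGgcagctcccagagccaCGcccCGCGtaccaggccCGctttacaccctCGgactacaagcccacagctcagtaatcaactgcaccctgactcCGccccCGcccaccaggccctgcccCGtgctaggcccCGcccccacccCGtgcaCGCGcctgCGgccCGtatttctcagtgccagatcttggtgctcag
Ranbp17: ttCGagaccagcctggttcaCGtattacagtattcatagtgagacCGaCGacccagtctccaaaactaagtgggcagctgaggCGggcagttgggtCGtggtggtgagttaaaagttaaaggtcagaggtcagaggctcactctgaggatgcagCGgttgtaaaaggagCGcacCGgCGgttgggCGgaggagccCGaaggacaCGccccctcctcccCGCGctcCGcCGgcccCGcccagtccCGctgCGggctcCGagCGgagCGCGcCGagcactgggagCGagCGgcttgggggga
Gphn: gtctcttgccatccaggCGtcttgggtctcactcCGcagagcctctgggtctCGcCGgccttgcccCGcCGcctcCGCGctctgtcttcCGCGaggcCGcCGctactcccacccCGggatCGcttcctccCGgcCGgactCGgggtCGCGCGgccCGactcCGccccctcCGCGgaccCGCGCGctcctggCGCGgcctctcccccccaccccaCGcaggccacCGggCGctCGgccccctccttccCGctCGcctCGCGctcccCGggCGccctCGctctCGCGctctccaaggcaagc
The Ces2e window held 2 CpG and that of Ano3 held 8, against 10 in Zrsr1, 20 in Mgmt, 27 in Ranbp17 and 42 in Gphn. The observed-to-expected CpG ratio, which corrects the number of CpG for the base composition, was 0.134 in Ces2e, 0.39 in Ano3, 0.475 in Zrsr1, 0.652 in Mgmt, 0.891 in Ranbp17 and 1.04 in Gphn. Both kinds of promoter were thus present among the genes with the highest counts.

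Over the 29 windows the median ratio was 0.403 (SD 0.287), against 0.596 for all 16686 genes of the table with a window. It lay between the median of 0.237 for the 7028 genes at 5 counts or fewer in each of the 6 cultures and the median of 0.800 for the 8009 genes at 10 counts or more in each of the 6 cultures. A ratio above 0.6 was found in 7 of the 29 windows (24.1%), namely those of Gphn, Usp13, Mettl20, Ranbp17, Ankrd6, Wbscr17 and Mgmt, against 49.8% of all genes, 16.6% of the genes low in each culture and 79.7% of the genes counted in each culture. Of the 13 genes with no count in any WT culture 5 were above 0.6, and of the 16 others with a window 2 were. The letters TATAAA, searched on both strands, stood in 1 window (3.45%), that of the non-coding RNA 3110039M20Rik, against 12.7% of all windows. GGGCGG, likewise on both strands, stood in 10 windows (34.5%) against 47.7%.

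**Figure D1:**
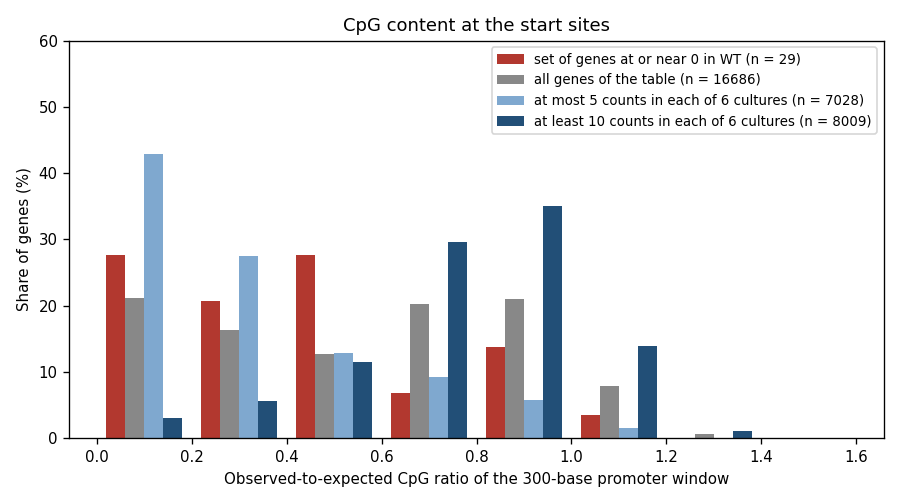
Share of genes (%, vertical axis) by the observed-to-expected CpG ratio of the promoter window (horizontal axis, steps of 0.2) for 4 sets: the 29 genes with a window, all 16686 genes with a window, 7028 genes low in all 6 cultures and 8009 genes counted in all 6. The 29 genes (red) lie mostly below 0.6, with 7 above it.

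All 36 genes separate the groups by construction, where 8.45% of the tested genes had every K794Q culture above every WT culture, and 34 of them entered the fit across 11608 genes. The thresholds were 2-fold and an unadjusted p of 0.05, and 34 of 34 tested genes passed both, where 3.48% of all tested genes passed with higher counts in K794Q cells. The rule used the same contrast, so nothing is read from that count. In the WT cultures 13 of the 36 genes had no count at all, 7 had 1 to 3 counts in the 3 cultures together, and 16 had more. Most were low in the K794Q cells too: divided by the exon length, their median level there was 1.11 CPM per kb (0.194 to 21.0), against 7.96 CPM per kb for 11522 tested genes with a known length.

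**Figure D2:**
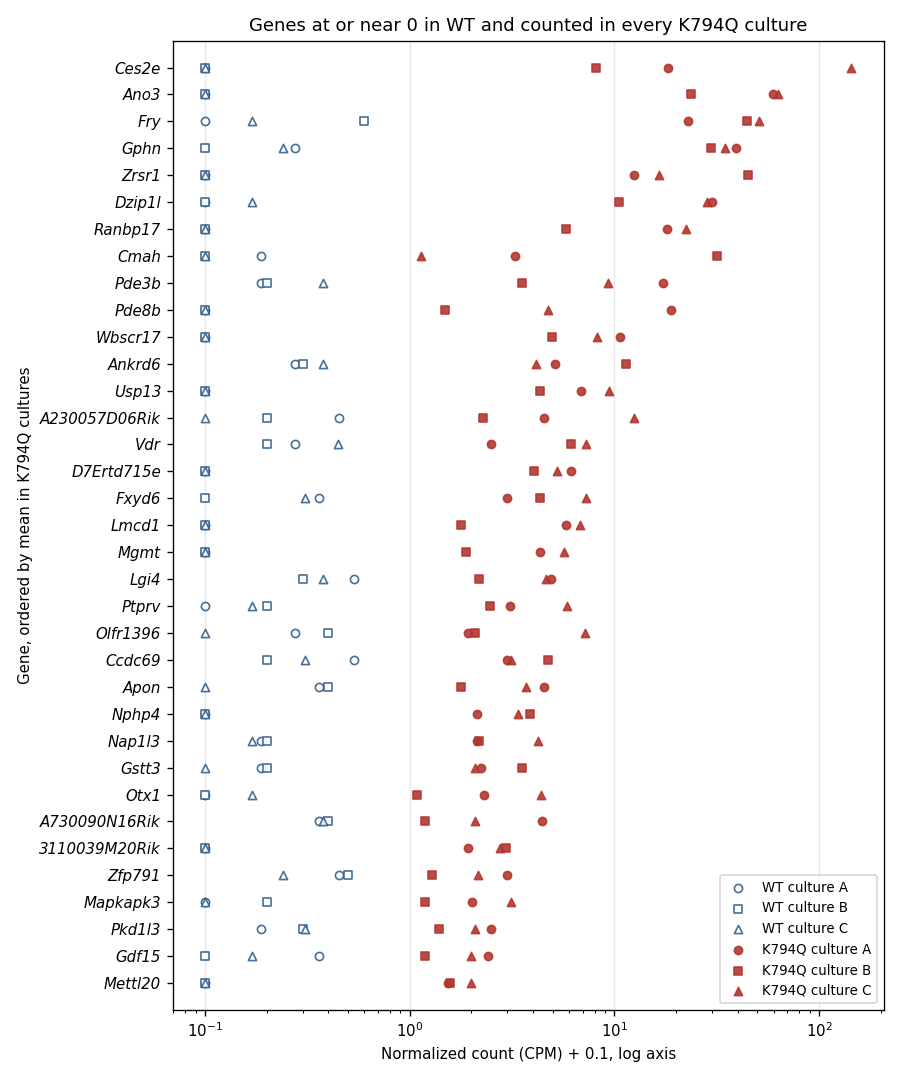
Normalized count (CPM, with 0.1 added so that 0 can be drawn on the log axis) of 35 of the 36 genes in 3 WT (open) and 3 K794Q cultures (filled). Points at 0.1 are counts of 0; the widest scatter among filled points is that of Cmah, Ces2e and Pde8b.

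Among 7 enzymes, 5 had no count in any WT culture. Ces2e (chr8:104926260-104934672), a carboxylesterase that hydrolyses ester bonds in drugs and lipids, had 0 counts in each WT culture and 188, 81 and 1673 counts in K794Q cultures A, B and C, or 18.1, 7.99 and 144 CPM. Culture C alone held most of its reads, and its mean of 56.7 ± 75.7 CPM (SD, n = 3) was at least 189-fold higher than the limit that 3 counts in the smallest WT library set. Of 19 carboxylesterase genes in the table, 15 had no count in any of the 6 cultures, and Ces2e was the only one with enough reads for a test. Another gene of the family, Ces2g, had no count in the WT cultures and 13, 0 and 62 in K794Q cultures A, B and C, so that it too was highest in culture C and lowest in culture B.

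Cmah (chr13:24327404-24477377) makes the sialic acid form that humans lack, by hydroxylating CMP-linked N-acetylneuraminic acid. It had 1, 0 and 0 counts in the WT cultures and 33, 321 and 12 in K794Q cultures, which came to 3.18, 31.7 and 1.03 CPM. Here culture B was the high one and culture C the low one, and the highest culture was 30.7 times the lowest. The ratio of the pooled counts was 408 with a 95% counting interval of 72.7 to 16139.

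Wbscr17, now named Galnt17 (chr5:130872082-131308497), belongs to the enzymes that start mucin-type O-glycosylation, and Usp13 (chr3:32817546-32938071) removes ubiquitin from proteins. Wbscr17 had 0 counts in each WT culture and 10.5, 4.84 and 8.08 CPM in the K794Q cultures (7.80 ± 2.84, SD, n = 3), at least 26.0-fold higher. Usp13 likewise went from 0 to 6.74, 4.24 and 9.29 CPM, at least 22.5-fold higher on average. Culture B was the lowest mutant culture for both. Mgmt (chr7:136894614-137130266), which removes alkyl groups from guanine in damaged DNA, had no count in the WT cultures and 44, 18 and 65 counts in the others, a mean level at least 12.9-fold higher. Mettl20, now Etfbkmt, a methyltransferase acting on a mitochondrial electron carrier, had the lowest level of the 36 genes and the most even one, with 15, 15 and 22 counts against none. Gstt3, a glutathione transferase, had 1, 1 and 0 counts against 22, 35 and 23.

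Of 9 genes for membrane and signalling proteins, 2 had no count in any WT culture. Ano3 (chr2:110655201-110950923) encodes an anoctamin, one of a family of membrane proteins that includes calcium-activated chloride channels and lipid scramblases. It had 0 counts in each WT culture and 615, 239 and 734 counts in K794Q cultures A, B and C, or 59.2, 23.6 and 63.1 CPM. Its mean of 48.6 ± 21.8 CPM (SD, n = 3) was at least 162-fold higher than the limit in WT cells. The rule picked Ano3 on this contrast, so only its relatives are counted. Of the 4 other tested anoctamins 0 passed both thresholds in edgeR or DESeq2, 1 reached p of 0.05 or less before adjustment, and 5.19% of all tested genes passed in either direction. The most abundant, Ano6, had 235 ± 68.8 and 341 ± 171 CPM (SD, n = 3 each) and a log2 change of 0.53. Muc15 shares 61 exon bases with Ano3 on the opposite strand and had no count in any culture.

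Both cyclic nucleotide phosphodiesterases of the set break down cyclic AMP, Pde3b at the membranes of the endoplasmic reticulum and Pde8b with high affinity. Pde3b (chr7:114415281-114539251) had 1, 1 and 4 counts in the WT cultures and 179, 35 and 107 in the K794Q cultures, a pooled ratio of 59.6 (95% counting interval 27.1 to 164). Pde8b (chr13:95024454-95250336) had no count in the WT cultures and 195, 14 and 54 counts in the K794Q cultures, or 18.8, 1.38 and 4.64 CPM. Culture A was the highest and culture B the lowest for both, and the mean of Pde8b was at least 27.6-fold higher than the limit. Of the 9 other tested genes of this family 0 passed both thresholds in edgeR or DESeq2, and 1 reached p of 0.05 or less before adjustment. Pde8a, the closest relative of Pde8b, had 70.2 ± 14.7 and 117 ± 70.1 CPM (SD, n = 3 each) and a log2 change of 0.74 that did not pass.

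The other membrane and signalling genes had lower counts. Fxyd6, a regulator of the sodium pump, had 3, 0 and 3 counts against 30, 43 and 83. Ptprv, a phosphatase gene annotated as a processed transcript, had 0, 1 and 1 counts against 31, 24 and 67, and Mapkapk3, a kinase of the p38 pathway, had 0, 1 and 0 against 20, 11 and 35. Olfr1396, an olfactory receptor gene, drew most of its reads from culture C, with 2, 3 and 0 counts against 19, 20 and 82. Pkd1l3, a polycystin-family channel subunit, had 1, 2 and 3 against 25, 13 and 23, and shares 190 exon bases on the opposite strand with Ist1, which had 87.8 ± 11.6 and 80.1 ± 16.9 CPM (SD, n = 3 each).

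Among 7 nuclear proteins, Zrsr1 and Ranbp17 had the most reads. Zrsr1 (chr11:22972005-22976496) is a U2af1-like splicing factor gene that arose by retroposition inside an intron of Commd1 and is imprinted in mouse, being read from the paternal copy. It had 0 counts in each WT culture and 128, 454 and 191 counts in K794Q cultures A, B and C, or 12.3, 44.8 and 16.4 CPM, at least 81.8-fold higher on average. Culture B was the highest. Its host gene Commd1, on the opposite strand and with 412 shared exon bases, had 22.9 ± 1.42 and 20.8 ± 2.48 CPM (SD, n = 3 each) and a log2 change of -0.14 (adjusted p = 0.89, edgeR quasi-likelihood test). Of the 4 other tested U2af-like factors 0 passed both thresholds in edgeR or DESeq2, with 0 at an unadjusted p of at most 0.05, and Zrsr2 had a log2 fold change of -0.14.

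A list of imprinted genes had 19 tested members beside Zrsr1, of which 3 passed both thresholds as higher and 1 as lower. Over all tested genes 3.48% passed as higher and 5.19% in either direction. In DESeq2 3 of the 19 passed. The adjusted p of the 4 ran from 0.287 (Grb10) to 0.480 (Peg10) in the edgeR quasi-likelihood test. Peg10, a retrotransposon-derived gene, had 272, 227 and 187 counts in WT cultures and 316, 5372 and 196 in K794Q cultures A, B and C. The non-coding Peg13 had 18, 13 and 18 counts against 38, 2810 and 36. In both, culture B stood far above the others, whereas the non-coding Airn had 31, 14 and 7 counts against a narrow range of 42, 45 and 66. Grb10, an adaptor of growth factor receptors, was the one that passed as lower, with a log2 fold change of -1.88.

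Ranbp17 (chr11:33211795-33513746) encodes a nuclear transport receptor of the importin-β family. It had 0 counts in each WT culture and 186, 58 and 258 counts in the K794Q cultures, or 17.9, 5.72 and 22.2 CPM, at least 50.9-fold higher on average. Of the 12 other exportin and Ran-binding genes of a list 0 passed both thresholds in edgeR or DESeq2, and 1 reached p of 0.05 or less before adjustment. Its closest relative Xpo7 had 167 ± 32.2 and 161 ± 2.66 CPM (SD, n = 3 each) and a log2 fold change of -0.05.

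Vdr, the nuclear receptor for vitamin D, had 2, 1 and 5 counts against 25, 61 and 83, and Lmcd1, a LIM-domain regulator of transcription, had none against 59, 17 and 78. Otx1, a homeobox factor of forebrain development, had 0, 0 and 1 counts against 23, 10 and 50. Nap1l3, a nucleosome assembly protein gene on the X chromosome, had 1 count in each WT culture and 21, 21 and 48 in the others, and the zinc finger gene Zfp791 had 4, 4 and 2 against 30, 12 and 24. Culture B was the lowest of the mutant cultures for Lmcd1, Otx1 and Zfp791, and culture A for Vdr and, narrowly, for Nap1l3.

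The 6 genes for scaffolds and cilia had the highest median level of the groups, 14.8 CPM in K794Q cultures. Gphn (chr12:78226379-78684772) encodes gephyrin, which anchors inhibitory neurotransmitter receptors at synapses and in all tissues helps to make the molybdenum cofactor. It had 2, 0 and 2 counts in the WT cultures and 408, 301 and 402 in the K794Q cultures, or 39.3, 29.7 and 34.6 CPM. The ratio of pooled counts was 309 (95% counting interval 120 to 1137), and with a highest-to-lowest ratio of 1.32 the mutant cultures were nearly level.

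Fry (chr5:150118645-150497753), a large microtubule-associated scaffold, had 0, 5 and 1 counts against 237, 450 and 590, a pooled ratio of 237 (109 to 647). It reached the rule's limit of 5 in WT culture B. Dzip1l (chr9:99629496-99669256), a protein at the base of the primary cilium, had 0, 0 and 1 counts against 310, 106 and 328. Nphp4, a component of the transition zone of the cilium, had no count against 21, 38 and 38, at least 10.0-fold higher on average. Ankrd6, the vertebrate Diversin of planar cell polarity signalling, had 2, 2 and 4 counts against 52, 115 and 47, and Ccdc69, a protein of the central spindle, had 5, 1 and 3 against 30, 47 and 35. Culture B was the highest mutant culture for Ankrd6, Ccdc69 and Nphp4 and the lowest for Gphn and Dzip1l.

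None of the 3 genes for secreted proteins was at 0 throughout the WT cultures. Lgi4, a secreted protein of glial development, had 5, 2 and 4 counts against 50, 21 and 53. It shares 2059 exon bases on the opposite strand with Fxyd3, which had 1 count in WT culture C and none in the other cultures. The stress-responsive cytokine gene Gdf15 had 3, 0 and 1 against 24, 11 and 22, and the apolipoprotein gene Apon had 3, 3 and 0 against 46, 17 and 42. Culture B was the lowest mutant culture for all 3.

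The 4 non-coding RNA genes include D7Ertd715e, now Snhg14 (chr7:59307924-59975759), the host of small nucleolar RNAs in the imprinted region that is deleted in Prader-Willi syndrome. It had no count in the WT cultures and 63, 40 and 60 counts in the K794Q cultures, or 6.07, 3.95 and 5.16 CPM, at least 16.9-fold higher on average. Some other genes of the region stayed low: Snrpn and Magel2 had no count in any culture, Ndn had 1 count in WT culture A, and Mkrn3 had 39, 24 and 10 counts against 15, 5 and 27. Further along the chromosome, A230057D06Rik and A330076H08Rik, described below, were higher in K794Q cultures. A330076H08Rik was the nearest tested gene outside the set on that side, 1954 kb away. Ube3a, which the long form of this RNA overlaps on the opposite strand by 1803 exon bases, had 174 ± 3.50 and 185 ± 5.77 CPM (SD, n = 3 each) and a log2 change of 0.10 (adjusted p = 0.903, edgeR quasi-likelihood test). The strand setting of the counting is not given in the sources used here, so reads in such shared bases cannot be assigned to either gene.

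A230057D06Rik (chr7:61704519-61928690) had 4, 1 and 0 counts against 46, 22 and 144. The next gene on the same strand, A330076H08Rik, ends 1.45 kb upstream of it and had 6, 2 and 0 counts against 68, 42 and 162, so that it missed the rule by 1 count in WT culture A. Both long non-coding RNAs were highest in culture C and lowest in culture B. 3110039M20Rik (chr12:49389652-49407360) had none against 19, 29 and 31 counts, and A730090N16Rik had 3, 3 and 4 against 45, 11 and 23.

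The 36 genes lie on 16 chromosomes, with 5 each on chromosomes 7 and 11 and 4 on chromosome 8, and no 2 of them are within 500 kb of each other. Their neighbours were tested genes that the rule did not pick. The rule was applied to all rows, so genes that met it could not be neighbours, and the share below is a description. The nearest tested gene on each side within 500 kb gave 55 genes beside 34 of the 36, of which 5 passed both thresholds (9.09%, where 5.19% of all tested genes passed in either direction), 3 higher and 2 lower. The median log2 fold change of the 55 was 0.02, against -0.02 over all tested genes. For most of the genes the nearest tested neighbours thus did not pass. Genes with too few reads for a test could not be neighbours, so untested genes may lie nearer. Examples were chosen after the values were seen. Npm1, 48.6 kb from Ranbp17, had a log2 fold change of -0.22. Wdr41, 1.14 kb from Pde8b, had 0.33, and Cbfb, 236 kb from Ces2e, had 0.11.

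**Figure D3:**
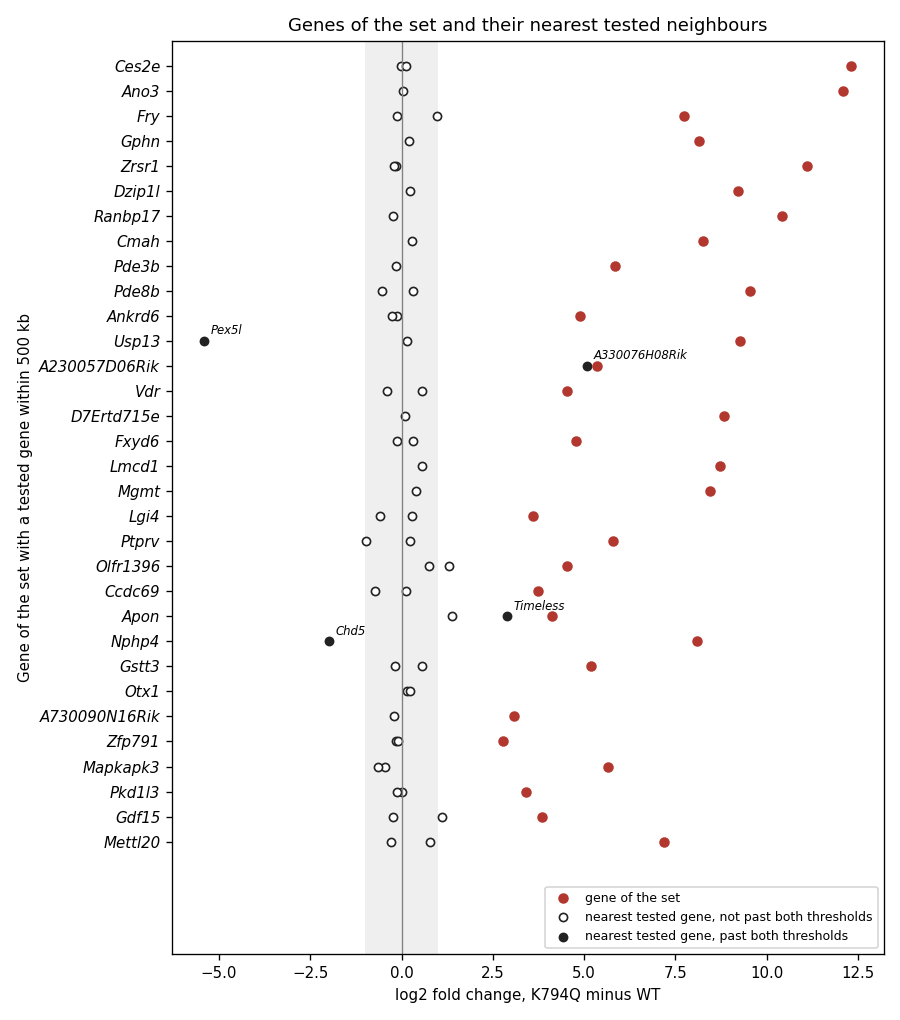
Log2 fold change (K794Q minus WT, horizontal axis) of 32 of the genes (red, where tested) and of their nearest tested neighbours within 500 kb (circles, black where both thresholds were passed). The grey band marks less than 2-fold; 4 of the 52 neighbours drawn are black, and the position of a red point whose gene had no WT count depends on the prior count of the fit.

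Timeless, a replication fork protein 1.16 kb from Apon on chromosome 10, had 44.2, 36.4 and 29.5 CPM in WT and 280, 269 and 267 CPM in K794Q cultures A, B and C. The groups were far apart and each was narrow, with a log2 fold change of 2.89 (SE, standard error of the fit, 0.21, adjusted p = 0.020 in the edgeR quasi-likelihood test). Apon lies downstream of Timeless on the same strand, and its own counts were low beside it.

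Among the neighbours that were higher was also A330076H08Rik, described above, with a log2 fold change of 5.07 (SE 1.05, adjusted p = 0.153, edgeR quasi-likelihood test).

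The lower neighbours were Chd5, a chromatin remodeller 86.5 kb from Nphp4, and Pex5l, a relative of a peroxisomal import receptor 11.3 kb from Usp13. Chd5 had 24.5, 18.5 and 7.31 CPM in WT and 5.20, 2.57 and 4.82 CPM in K794Q cultures, a log2 fold change of -1.99 (SE 0.52, adjusted p = 0.242, edgeR quasi-likelihood test). Pex5l had 54.1, 71.1 and 1.25 CPM against 0.481, 2.07 and 0.430 CPM, so that WT culture C lay below K794Q culture B. Its log2 fold change was -5.40 (SE 1.49, adjusted p = 0.268, edgeR quasi-likelihood test), the opposite sign to that of Usp13.

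The 3 K794Q cultures did not share these genes evenly. Culture C was the highest for 16 of the 36 genes (44.4%, against 34.2% of all tested genes). Culture A was the highest for 12 (33.3%, against 25.7%) and culture B for 8 (22.2%, against 40.0%). Culture B was the lowest for 22 of them (61.1%, against 41.5%) and culture C for 4 (11.1%, against 33.7%). The rule used the K794Q counts, so these shares only describe the set. The median ratio of the highest to the lowest mutant culture, with 0.5 CPM added to each, was 2.26, against 1.51 for all tested genes. Since a low count scatters more than a high one, and these genes are low, the 2 medians are given side by side only.

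**Figure D4:**
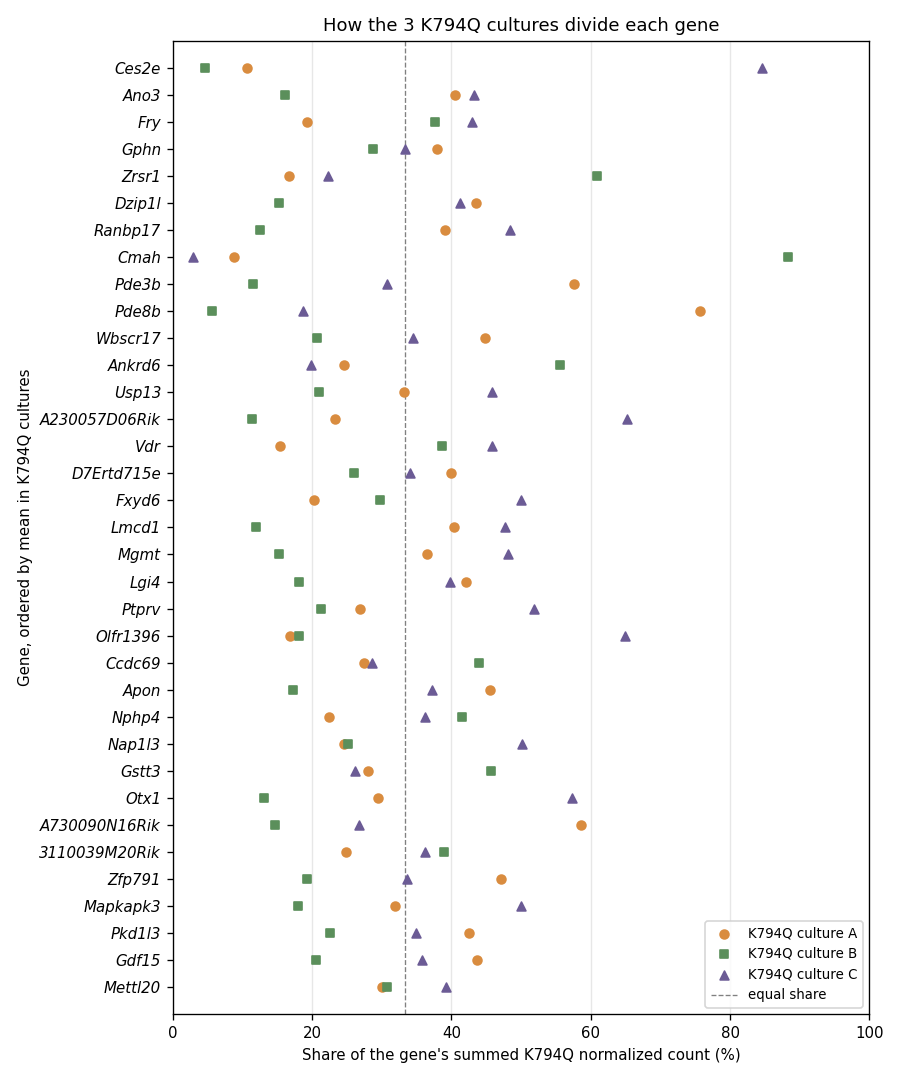
Share (%) of the summed K794Q normalized count of 35 of the 36 genes that came from culture A, B or C, in order of mean level. The dashed line marks equal shares; culture B (square) is the lowest for 22 genes, while Cmah and Zrsr1 came mostly from culture B and Ces2e mostly from culture C.

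The highest culture was over 5 times the lowest for 5 genes, among them Cmah (30.7), Ces2e (18.0), Pde8b (13.6) and A230057D06Rik (5.70). These did not share a culture, since Cmah was highest in culture B, Pde8b in culture A and the remaining ones in culture C. At the other end, the ratio was under 2 for 8 genes, namely Mettl20 (1.31), Gphn (1.32), D7Ertd715e (1.54), 3110039M20Rik (1.56), Ccdc69 (1.61), Gstt3 (1.75), Nphp4 (1.85) and Pkd1l3 (1.88). Of these only Gphn had over 100 counts in each mutant culture. In all, 21 of the 36 genes had at least 20 counts in each mutant culture.

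Close to the limits of the rule, 9 genes lay inside, with 5 counts in a WT culture or with 10 or 11 in a K794Q culture, and 18 lay outside by at most 2 counts. Mapkapk3 with 11 counts and Otx1 with 10 in their lowest mutant culture were just inside, as were Lgi4, Vdr and Ccdc69 with 5 counts in a WT culture. Just outside were Slc46a1, the folate transporter, with no count in WT and 32, 8 and 13 in K794Q cultures, and Adamts12, a secreted metalloprotease, with 3, 1 and 1 against 89, 8 and 109. Rgs20, a regulator of G-protein signalling, had 1, 1 and 3 against 13, 80 and 9. In each of these a single mutant culture, B for Slc46a1 and Adamts12 and C for Rgs20, fell short of 10 counts. Other near misses differed. Hmx2 had 7, 5 and 7 counts in WT against 21, 20 and 39 in K794Q cultures, and Evi2b had 1, 1 and 2 against 8, 9 and 8.

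Few marker genes of other lineages had enough reads for a test. Of 16 germline genes in a list, 1 was tested, the testis bromodomain gene Brdt, which passed both thresholds with 9, 10 and 4 counts against 28, 9 and 38, where the groups overlapped. The 2 tested neuronal markers, Stmn2 and Nefl, passed in the lower direction with log2 fold changes of -4.31 and -7.05. Their adjusted p was 0.447 and 0.047 (edgeR quasi-likelihood test), and in DESeq2 1 of the 2 passed both thresholds. Stmn2 had 15.8, 21.5 and 273 CPM in WT and 8.28, 0 and 7.31 CPM in K794Q cultures A, B and C. Of 2 tested mesenchymal markers 1, Prrx1, also passed as lower. Over all tested genes 5.19% passed in either direction. The haematopoietic list had 1 tested gene, which did not pass, and the epithelial list had none.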

How the data were processed

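Total RNA of 6 eEnd2 cultures (3 per group) was depleted of ribosomal RNA and sequenced. The authors deposited raw counts per gene symbol for the 6 cultures. The submitters' processing notes name bcl2fastq 2.20.0, STAR 2.7.4a, HTSeq 0.9.1, edgeR 3.38.4 and the build mm10; the annotation and the strand setting of the counting are not given in the sources used here. There were 0 further columns of per-sample values.

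The rule (at most 5 and at least 10 raw counts) was applied to all 23420 rows. The genes and the gene lists were chosen with earlier results of these data known. Counts were fitted with edgeR 4.0.16 (R 4.3.3; TMM scaling, filterByExpr, quasi-likelihood test, group as the only term) over 11608 genes, with Benjamini-Hochberg adjustment over all of them, and a simulated count table was tested first. Calls needed a 2-fold change or more with an unadjusted p not above 0.05. Normalized counts are CPM on TMM-scaled library totals. A fold against counts of 0 set the mean of the 3 K794Q cultures against 3 counts in the smallest WT library (0.300 CPM, per library). A single K794Q culture can lie below such a fold. Other folds are ratios of pooled counts with exact 95% intervals. Gene positions came from the GENCODE annotation of GRCm38: 21777 symbols were placed directly and 1260, Wbscr17, Mettl20 and D7Ertd715e among them, through a synonym. Promoter windows came from RefSeq and were used where their start of transcription lay within 1000 bases of the gene start in RefSeq or GENCODE. The culture letters were checked for pairing: deviations from the group means correlated at 0.12 for A, 0.056 for B and 0.11 for C. Named in full by rule were the 12 genes with the highest mean, the 8 most even ones and genes of the set on the lists. The lists were endothelial, mesenchymal and mural, haematopoietic, epithelial, neuronal, germline, imprinted, anoctamin, carboxylesterase, phosphodiesterase, exportin and Ran-binding, and U2af-like. Genes of the set at the edge of the rule and neighbours past both thresholds were also named. Of genes just outside the rule only examples are given. The remaining genes are given by role; 1 gene of the set and 1 neighbour are not reported here. Alternatives were RLE scaling, other filters, the likelihood ratio test, DESeq2 1.42.0, a block on the culture letter, other distances and limits, and leaving out each culture.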

Additional observations from a re-analysis of the deposited data

How the results depend on the processing

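The size of the set depends on where the limits lie. With no count allowed in WT cultures 13 genes remained, with at most 2 counts 21, and with at least 20 counts in each K794Q culture 21. Leaving out one culture at a time gave 37 to 76 genes, with 56 without WT culture C and 76 without K794Q culture B. Over all genes, 603 passed both thresholds, 916 without a filter on low counts and 501 to 992 when one culture was left out (992 without WT culture C, 942 without K794Q culture B). The genes of the set past both thresholds numbered 35 to 36 when one culture was left out, a count that the rule fixes. The 5 neighbours past both thresholds became 2 of 50 with at least 10 counts required in each culture, and 5 to 7 when one culture was left out; that filter removes every gene of the set, so no value was given for the set. The median CpG ratio of the set minus that of all genes was -0.19; against genes at 5 counts or fewer in each culture the difference was 0.17, since those genes have the lowest ratios, and against genes at 10 counts or more -0.40. With only the 24 windows within 1000 bases of the GENCODE start, an alternative chosen after seeing the data, the difference from all genes was -0.23.

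The culture letters were not used as pairs in the main fit, because the deviations of culture B correlated below 0.1. Such a correlation cannot show whether the cultures were handled in pairs, which the labels do not state. With the letter as a replicate block 571 genes passed, and 5 neighbours among them. A count of 0 allows up to 0.300 CPM in the smallest WT library, so levels under it were not detectable, and 15 genes of the set had under 20 counts in at least 1 K794Q culture.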
